A study of Mus musculus with 8 samples.

Results

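The tumour necrosis factor (TNF) superfamily ligands and their receptors were followed in the lungs of mice given lipopolysaccharide (LPS), with or without the peptidylarginine deiminase (PAD) inhibitor YW3-56. The members were all genes of the count files whose mouse symbol is Tnfsf or Tnfrsf followed by a number, together with Tnf, Lta, Ltb, Ltbr, Fas, Fasl, Cd40, Cd40lg, Cd27, Cd70, Eda, Edar and Ngfr. This rule found 45 of the 55416 genes in the files: 18 ligands, 26 receptors and 1 antisense gene, Tnfsf13os. All 45 had at least 1 count, and 38 passed the filter on low counts and were tested, 12 of them ligands, 25 receptors and 1 the antisense gene.

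Poly(A) RNA from 1 side of the lung was sequenced in 8 female C57BL/6 mice (C57BL/6J in the methods) aged 6 to 8 weeks, and the files hold raw counts of reads per gene for each mouse. Control mice (mice 1, 2 and 4) received the solvent dimethyl sulfoxide in the tail vein and then saline into the peritoneum. LPS mice (mice 1, 6 and 7) received 35 mg/kg LPS, the endotoxin of Gram-negative bacteria; a solvent injection beforehand is not stated for them. Dual-treatment mice (mice 2 and 5) received 10 mg/kg YW3-56 dissolved in dimethyl sulfoxide 30 minutes before the same dose of LPS, and lungs were taken 24 hours after LPS. Each group answers for 1 dose and 1 time, and the dual treatment rests on 2 libraries, fewer than the methods describe. Total counts lay between 19061949 and 20908608 per library. A floor of 3 counts lay between 0.132 and 0.178 CPM (counts-per-million), which covers counting error only. Levels are given as CPM after TMM scaling (trimmed mean of M values), in the order of mice 1, 2 and 4 for controls, 1, 6 and 7 for LPS, and 2 and 5 for the dual treatment.

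Ligands of this superfamily are mostly trimeric membrane proteins that are shed or act between touching cells, and their receptors pass the signal through TNF receptor-associated factors (TRAFs) or through death domains. TRAF signals lead to NF-κB, which drives inflammation and cell survival, whereas death-domain receptors can start apoptosis or necroptosis. In the lung, TNF made by macrophages activates endothelium and epithelium, and other pairs govern T cell costimulation, B cell survival and epithelial or skeletal development.

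The tissue label held in every library: the type 2 alveolar marker Sftpc, a surfactant protein, lay between 8322 and 24540 CPM, and the type 1 marker Ager between 979 and 2432 CPM. Every mouse that received LPS had less Sftpc than any control. LPS mice 6 and 7 stood apart from the other libraries. The summed level of 10 squamous epithelium markers, led by Krt13, was 11.4, 15.02 and 15.4 CPM in controls, 1.54, 811 and 2161 CPM in LPS and 11.4 and 25.7 CPM in dual-treatment lungs, and 8 of 10 were called higher with LPS. Summed over 8 skeletal muscle markers, led by Acta1, the levels were 24.02, 70.9 and 41.4 CPM, 56.4, 486 and 1136 CPM and 14.9 and 13.9 CPM, with 7 of 7 tested genes called higher with LPS. Tissue of another kind in these 2 libraries and an effect of LPS cannot be told apart from the labels. For the comparisons that hold LPS mice, counts of called members, ligands and receptors are therefore also given without these 2 libraries. Erythroid markers, 4 genes led by Hbb-bs, summed to 1609, 3591 and 2582 CPM in controls, 3006, 1792 and 1326 CPM in LPS and 392 and 357 CPM in dual-treatment lungs, with 4 of 4 called lower in the dual treatment against control.

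In control lung, levels were compared between genes per kilobase of exon. Among receptors the highest were Tnfrsf1a, the main TNF receptor of most cells, at 59.01 ± 1.54 CPM per kb (SD, n = 3), and the lymphotoxin β receptor Ltbr at 45.1 ± 2.095 CPM per kb. Tnfrsf12a, which binds the ligand Tnfsf12, had 27.5 ± 3.895 CPM per kb and the death receptor Fas 25.8 ± 2.01 CPM per kb, within each other's spread. Among ligands, the death ligand Tnfsf10 (TRAIL) led with 18.5 ± 1.53 CPM per kb, followed by Tnfsf12 (TWEAK) with 12.6 ± 0.894 CPM per kb. Tnf itself had 4.797 ± 0.574 CPM per kb, below Tnfsf9 at 7.88 ± 2.002 and Ltb at 6.799 ± 0.146 CPM per kb. In the other role groups the highest control levels per kb were those of Cd40 (7.15 CPM per kb), Tnfrsf19 (5.99), Tnfsf13 (2.92), Tnfrsf13b (1.54) and Eda (0.596). Other genes share all 1965 exonic bases of Tnfrsf12a, 980 of 1872 of Tnfsf12 and 1252 of 1906 of Tnfsf13, so the levels and places of these 3 genes are uncertain.

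The 7 members that were not tested were low in every group. The lymphotoxin ligand Lta had at most 10 counts in any library, and no library exceeded 12 counts of the bone ligand Tnfsf11 (RANKL), the T cell ligands Cd40lg, Cd70, Tnfsf4 and Tnfsf18, or the plasma cell receptor Tnfrsf17. Fitted with no filter on low counts, none of the 7 was called in any comparison by edgeR, and DESeq2 was run only with the filter. The unadjusted p was then under 0.05 for Tnfsf11 with LPS against control (log2 fold change −2.96) and for Tnfsf18 between the dual treatment and LPS (4.71). Tnfsf18 had 0 counts in every LPS library and 4 and 3 counts in dual-treatment mice. Tnfsf11 had 0, 1 and 1 counts in LPS mice, so the fold changes of both genes are not exact sizes. Tnfsf11 was called lower with LPS when dual-treatment mouse 2 or 5 was left out (−2.93 in both), since 41 members then pass the filter.

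The first comparison, LPS against control, asks what high-dose endotoxin did to the family within 24 hours. The receptors Tnfrsf9, Tnfrsf10b and Tnfrsf8 rose most among the 38 tested members and Tnfrsf19 fell most, while the ligands Tnfsf10, Tnfsf12, Tnfsf13 and Tnfsf9 fell and Tnf was not called. A gene was called when its adjusted p was under 0.05 in the quasi-likelihood test of edgeR, Benjamini-Hochberg over all 18560 tested genes, and its fold change was over 2. Of the 38 tested members, 13 rose and 10 fell, against backgrounds of 17.9% of all tested genes higher and 21.3% lower. As shares of the members these counts are 34.2% and 26.3%, and the median log2 fold change was 0.48 over the members and −0.01 over all tested genes. The split between receptors and ligands was uneven: 12 of 25 receptors rose and 5 fell, whereas 1 of 12 ligands rose and 4 fell, with medians of 0.84 and −0.17. Scaling by library size only moved the median of all genes by −0.28 and the share of higher genes among all called genes from 45.6% to 32.5%, and the members then counted 12 higher and 11 lower. Without LPS mice 6 and 7, the calls over 41 tested members were 16 higher and 8 lower, beside 15.9% and 19.7% of all genes tested there. They were 13 and 4 of the 25 receptors, 3 and 3 of the 15 ligands then tested, and the antisense gene lower. The median log2 fold change was then 1.03 over the receptors, and over the ligands −0.92 for all 15 and −0.15 for the 12 tested with all mice.

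Levels were also summed over each side of the family. All 26 receptors together had 608, 607 and 615 CPM in controls, 1355, 1188 and 1006 CPM in LPS and 770.3 and 801 CPM in dual-treatment lungs, and the 3 groups did not overlap. The 18 ligands together had 174, 190 and 184 CPM, 133, 116 and 92.8 CPM and 207 and 184 CPM, lowest in every LPS mouse, while control and dual-treatment values overlapped. This drop lay in Tnfsf10 and Tnfsf12: the other 16 ligands summed to 60.5, 57.02 and 60.4 CPM, 72.9, 59.3 and 47.2 CPM and 54.5 and 61.03 CPM, with overlap of all groups. The sum of 6 endothelial markers was also lowest in every LPS mouse, with 2742, 3061 and 3172 CPM, 1969, 1619 and 1575 CPM and 2852 and 2974 CPM. The part of endothelium in the levels of Tnfsf10 and Tnfsf12 was not tested.

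T cell and antigen-presentation receptors held the largest change. Tnfrsf9, an inducible costimulatory receptor of activated T and NK cells, had 1.52, 0.563 and 0.736 CPM in controls, 179.5, 154 and 90.04 CPM in LPS and 5.49 and 3.29 CPM in dual-treatment lungs. Each LPS mouse lay far above every other mouse, and both dual-treatment mice lay above all controls. Tnfrsf9 rose 150.5-fold with LPS (edgeR quasi-likelihood test, Benjamini-Hochberg, log2 fold change 7.23 ± 0.40 SE, adjusted p = 9.77e-07), and the log2 fold change was 7.59 without LPS mice 6 and 7. Per length, it went from 0.345 CPM per kb in controls, among the lowest of the family, to 51.8 CPM per kb in LPS lungs, near Fas at 54.7 CPM per kb.

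All 6 tested receptors of this group changed with LPS, 4 upward and 2 downward, beside 17.9% and 21.3% of all tested genes, and without LPS mice 6 and 7 the calls were 4 and 1. Tnfrsf8 (CD30), of activated lymphocytes, had 0.587, 0.6101 and 0.6897 CPM in controls, 4.87, 3.64 and 3.13 CPM in LPS and 2.405 and 2.28 CPM in dual-treatment lungs. Tnfrsf4 (OX40), a costimulator of activated T cells, had 3.47, 3.05 and 3.04 CPM in controls, 12.6, 10.2 and 7.93 CPM in LPS and 2.81 and 3.16 CPM in dual-treatment lungs. Cd40, through which T cells license antigen-presenting cells, had 22.6, 26.1 and 24.5 CPM in controls, 85.4, 57.1 and 42.2 CPM in LPS and 29.6 and 32.7 CPM in dual-treatment lungs. In all 3 genes every LPS mouse was above every control, and they rose by 6.11, 3.22 and 2.52 times. By edgeR's quasi-likelihood test (Benjamini-Hochberg), the log2 fold changes and adjusted p were 2.61 ± 0.29 and 3.97e-05 for Tnfrsf8, 1.69 ± 0.22 and 1.01e-04 for Tnfrsf4, and 1.34 ± 0.22 and 4.74e-04 for Cd40.

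Downward changes in the same group concerned Cd27 and Tnfrsf18. Cd27, a costimulator of naive and memory T cells, had 3.67, 3.24 and 2.02 CPM in controls, 0.949, 0.982 and 1.005 CPM in LPS and 1.81 and 2.72 CPM in dual-treatment lungs, and every LPS mouse lay below every other mouse. Tnfrsf18 (GITR), a marker of regulatory and activated T cells, had 3.38, 3.895 and 3.13 CPM in controls, 2.55, 0.866 and 1.62 CPM in LPS and 4.13 and 4.74 CPM in dual-treatment lungs, again lowest in the LPS mice. Cd27 fell 3.03-fold (edgeR quasi-likelihood test, Benjamini-Hochberg, log2 fold change −1.598 ± 0.33 SE, adjusted p = 0.00189) and Tnfrsf18 2.06-fold (adjusted p = 0.0237). For Tnfrsf18 the call was lost without LPS mice 6 and 7 (log2 fold change −0.44) and without control mouse 2 (−0.96), LPS mouse 6 (−0.73) or LPS mouse 7 (−1.01) alone. The exons of Tnfrsf18 share 547 of 1524 bases with a neighbouring gene. Summed T cell markers, 7 genes led by Lck, were 26.1, 18.8 and 16.2 CPM in controls, 26.1, 19.2 and 13.8 CPM in LPS and 10.8 and 14.8 CPM in dual-treatment lungs, and 2 of 7 were called lower with LPS. The 6 NK cell markers, led by Gzma, summed to 10.9, 8.54 and 11.4 CPM, 43.4, 34.1 and 16.7 CPM and 37.9 and 74.2 CPM, and 2 were called higher and 1 lower with LPS. The 7 dendritic cell markers, led by Fscn1, summed to 122, 104 and 118 CPM, 186, 135 and 131 CPM and 81.3 and 67.2 CPM, with 2 called higher and 4 lower with LPS. The rise of this sum lay mostly in Fscn1: the other 6 genes had 108, 95.7 and 111 CPM, 119, 84.4 and 81.1 CPM and 51.4 and 52.3 CPM. The part of these cells in the receptor changes was not tested, and in whole lung fewer cells of a type and less RNA per cell cannot be told apart.

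Death, decoy and bone receptors formed the largest role group, with 6 of 10 higher and 1 lower with LPS (17.9% and 21.3% of all tested genes), and 7 and 1 without LPS mice 6 and 7 (15.9% and 19.7%). Tnfrsf10b, the mouse death receptor for TRAIL, had 4.94, 5.49 and 5.88 CPM in controls, 65.6, 41.4 and 45.3 CPM in LPS and 8.44 and 6.85 CPM in dual-treatment lungs, and LPS mice stood apart from all others. It rose 9.32-fold (edgeR quasi-likelihood test, Benjamini-Hochberg, log2 fold change 3.22 ± 0.20 SE, adjusted p = 1.56e-06). Fas, the receptor of Fas ligand, had 65.2, 56.4 and 58.1 CPM in controls, 153, 125 and 103 CPM in LPS and 71.4 and 60.7 CPM in dual-treatment lungs, with LPS mice above all others and dual-treatment mice overlapping the controls. Its 2.12-fold rise (edgeR quasi-likelihood test, Benjamini-Hochberg, adjusted p = 1.39e-04) lies close to the 2-fold limit, and the call was lost when only library size was used for scaling (log2 fold change 0.79) or without LPS mouse 1 (0.93).

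Both receptors for RANKL changed in the same direction. Tnfrsf11a (RANK), the signalling receptor, had 6.31, 6.76 and 6.25 CPM in controls, 19.7, 17.4 and 15.1 CPM in LPS and 13.3 and 13.2 CPM in dual-treatment lungs. Tnfrsf11b (osteoprotegerin), its soluble decoy, had 3.72, 3.75 and 2.35 CPM in controls, 14.9, 8.43 and 7.03 CPM in LPS and 3.36 and 2.06 CPM in dual-treatment lungs. Every LPS mouse exceeded every control for both genes, and dual-treatment mice exceeded the controls for Tnfrsf11a only. The rises were 2.697-fold for Tnfrsf11a (adjusted p = 2.26e-05) and 3.09-fold for Tnfrsf11b (edgeR quasi-likelihood test, Benjamini-Hochberg, log2 fold change 1.63 ± 0.34 SE, adjusted p = 0.00204).

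The 3 neighbouring genes Tnfrsf26, Tnfrsf22 and Tnfrsf23 on chromosome 7 did not move together. Tnfrsf22, a decoy TRAIL receptor without a death domain, had 4.45, 5.07 and 6.53 CPM in controls, 1.72, 2.77 and 1.62 CPM in LPS and 8.08 and 7.29 CPM in dual-treatment lungs. Tnfrsf23, its close relative and also a decoy, had 2.15, 2.35 and 1.89 CPM in controls, 5.99, 5.83 and 5.69 CPM in LPS and 4.58 and 4.43 CPM in dual-treatment lungs. Tnfrsf26, the remaining gene of the cluster, had 1.76, 1.31 and 1.24 CPM in controls, 3.5, 5.198 and 4.75 CPM in LPS and 3.58 and 3.38 CPM in dual-treatment lungs. LPS mice were the lowest for Tnfrsf22 and above all controls for the other two. Tnfrsf22 fell 2.62-fold, whereas Tnfrsf23 rose 2.74-fold (edgeR quasi-likelihood test, Benjamini-Hochberg, adjusted p = 0.00123 and 1.35e-04). Tnfrsf26 rose 3.11-fold (edgeR quasi-likelihood test, Benjamini-Hochberg, log2 fold change 1.64 ± 0.26 SE, adjusted p = 4.00e-04). In GRCm39 they lie on the minus strand at chr7:143161396-143182459, chr7:143187219-143203408 and chr7:143219546-143239611. Of the 50-base words in the GENCODE transcripts of Tnfrsf22, 13% also occur in Tnfrsf23, and 15.7% of those of Tnfrsf23 occur in Tnfrsf22, so their counts are uncertain to that extent; Tnfrsf26 shares 0 such words with either. Exons of another gene also cover 233 bases of Tnfrsf22, 164 of Tnfrsf23 and 107 of Tnfrsf26.

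The 3 receptors of the group that were not called were Tnfrsf12a, Tnfrsf21 and Ngfr. Tnfrsf12a had 60.6, 45.6 and 55.7 CPM in controls, 109.6, 87.7 and 66.3 CPM in LPS and 70.4 and 58.7 CPM in dual-treatment lungs and a log2 fold change of 0.702 with LPS, and of 1.03, past the call, without LPS mice 6 and 7. Every LPS mouse was above every control. All 1965 of its exonic bases lie under exons of Hcfc1r1 on the other strand, and the strand setting of the counting is not given in the sources used here, so its reads and those of its neighbour cannot be told apart. Tnfrsf21, a death-domain receptor, and the neurotrophin receptor Ngfr had log2 fold changes of −0.32 and −0.29, and both overlapped between LPS and control mice.

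Among the receptors for TNF and lymphotoxin, 1 of 5 rose and 1 fell, with the same counts when LPS mice 6 and 7 were left out, near the 17.9% and 21.3% of all tested genes. Tnfrsf1b, the inducible TNF receptor of leukocytes and endothelium, had 44.6, 40.4 and 42.7 CPM in controls, 108, 118 and 92.7 CPM in LPS and 102 and 163 CPM in dual-treatment lungs, with LPS and dual-treatment mice all above the controls. It rose 2.49-fold with LPS (edgeR quasi-likelihood test, Benjamini-Hochberg, log2 fold change 1.32 ± 0.17 SE, adjusted p = 9.37e-05). Tnfrsf1a had 180.4, 189.8 and 187 CPM in controls, 332, 320.3 and 269.9 CPM in LPS and 230.3 and 230.3 CPM in dual-treatment lungs, and Ltbr had 106, 104 and 114 CPM in controls, 202, 177 and 199.6 CPM in LPS and 128 and 121 CPM in dual-treatment lungs. For both genes each LPS mouse lay above all 5 other mice. Their ratios to control were 1.65 and 1.79, under the 2-fold limit, with adjusted p of 2.01e-04 and 4.01e-05 by edgeR's quasi-likelihood test (Benjamini-Hochberg). Tnfrsf25, a death-domain receptor of T cells, had 10.1, 13.7 and 14.1 CPM in controls, 5.399, 5.37 and 3.85 CPM in LPS and 3.27 and 6.103 CPM in dual-treatment lungs, all controls being highest. It fell 2.59-fold (edgeR quasi-likelihood test, Benjamini-Hochberg, adjusted p = 0.00128), and 512 of its 3000 exonic bases are shared with Espn on the other strand. Tnfrsf14, a receptor of lymphocytes and epithelium, had a log2 fold change of −0.59, lower in every LPS mouse than in any control.

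Summed neutrophil markers, 11 genes led by S100a9, were 236, 131 and 137 CPM in controls, 2461, 3167 and 1990 CPM in LPS and 1888 and 2453 CPM in dual-treatment lungs, with 10 of 11 called higher with LPS and 7 of 11 with the dual treatment against control. The 7 macrophage markers, led by Chil3, summed to 859, 607 and 814 CPM, 882, 969 and 495 CPM and 1180 and 1867 CPM, with 2 called lower with LPS and 4 higher with the dual treatment against control. The 6 endothelial markers, led by Cdh5, summed to 2742, 3061 and 3172 CPM, 1969, 1619 and 1575 CPM and 2852 and 2974 CPM, with 4 of 6 called lower with LPS. Tnfrsf1b and the summed level of the neutrophil markers were both above control in all 5 mice that received LPS, though the markers Elane, Mpo and Camp overlapped between dual-treatment and control mice. The part of neutrophils, macrophages and endothelium in the level of Tnfrsf1b was not tested.

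Edar and Tnfrsf19 moved apart. Edar, the ectodysplasin receptor of skin appendages, had 1.86, 1.502 and 1.47 CPM in controls, 5.87, 2.54 and 4.52 CPM in LPS and 1.14 and 1.36 CPM in dual-treatment lungs, with LPS mice above all others. It rose 2.67-fold (edgeR quasi-likelihood test, Benjamini-Hochberg, adjusted p = 0.00416), and its log2 fold change of 1.42 became 1.87 without LPS mice 6 and 7. The study lists Edar as reversed from these same samples, so its direction is not independent evidence. Tnfrsf19 (TROY), an epithelial and neural receptor, had 43.5, 49.2 and 41.3 CPM in controls, 8.602, 6.82 and 6.47 CPM in LPS and 10.4 and 18.8 CPM in dual-treatment lungs, with every mouse that received LPS below every control. Among the 38 tested members it had the deepest fall with LPS, 6.12-fold (edgeR quasi-likelihood test, Benjamini-Hochberg, log2 fold change −2.61 ± 0.22 SE, adjusted p = 7.34e-06); 875 of its 7453 exonic bases are shared with an opposite-strand gene. The 6 markers of type 2 alveolar cells summed to 37140, 31020 and 38990 CPM in controls, 25810, 17990 and 14470 CPM in LPS and 18720 and 29770 CPM in dual-treatment lungs, and the 5 of type 1 cells to 3786, 3536 and 3657 CPM, 3393, 2899 and 1967 CPM and 1939 and 2552 CPM, with 2 of each list called lower with LPS. The part of these cells in the fall of Tnfrsf19 was not tested. The B cell receptors Tnfrsf13b and Tnfrsf13c had log2 fold changes of 0.46 and 0.395, and neither was called.

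Of the ligands, Tnf showed a difference below the call. Tnf had 8.71, 8.03 and 6.85 CPM in controls, 23.2, 11.3 and 9.43 CPM in LPS and 10.1 and 8.65 CPM in dual-treatment lungs. Every LPS mouse exceeded every control, LPS mouse 1 by the most, and the dual-treatment range overlapped both groups. Tnf was 1.86-fold higher with LPS (edgeR quasi-likelihood test, Benjamini-Hochberg, log2 fold change 0.895 ± 0.31 SE, adjusted p = 0.0268). It passed the call without LPS mouse 6 (log2 fold change 1.06), LPS mouse 7 (1.14) or both (1.57), and had 0.404 without LPS mouse 1, so both the size and the call rest on which LPS libraries are used.

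Fasl was the 1 ligand that rose. This killing ligand of cytotoxic cells had 0.294, 0.188 and 0.506 CPM in controls, 1.78, 1.21 and 0.893 CPM in LPS and 0.181 and 0.966 CPM in dual-treatment lungs, that is 6, 4 and 11 counts in controls and 30, 21 and 16 in LPS mice. LPS mice exceeded all controls, while the 2 dual-treatment mice lay on either side of the controls. Its 3.87-fold rise (edgeR quasi-likelihood test, Benjamini-Hochberg, log2 fold change 1.95 ± 0.64 SE, adjusted p = 0.0218) was no longer called without control mouse 1 (1.88), control mouse 2 (1.67) or LPS mouse 1 (1.66) alone.

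The 4 ligands that fell were Tnfsf10, Tnfsf12, Tnfsf13 and Tnfsf9. Tnfsf10 had 91.4, 108 and 100.2 CPM in controls, 52.7, 47.9 and 38.01 CPM in LPS and 132 and 93.1 CPM in dual-treatment lungs. Tnfsf12 had 21.7, 25.01 and 23.9 CPM in controls, 7.12, 8.55 and 7.65 CPM in LPS and 20.7 and 29.7 CPM in dual-treatment lungs. For both, LPS mice were below every other mouse, and control and dual-treatment mice overlapped. The falls were 2.16-fold and 3.03-fold (edgeR quasi-likelihood test, Benjamini-Hochberg, log2 fold change −1.11 ± 0.16 SE, adjusted p = 1.94e-04 for Tnfsf10 and log2 fold change −1.599 ± 0.16 SE, adjusted p = 2.12e-05 for Tnfsf12). Tnfsf10 lost its call without LPS mouse 7 (log2 fold change −0.98) or LPS mice 6 and 7 (−0.92), whereas Tnfsf12 was still called at −1.72 without both mice.

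Tnfsf13 (APRIL), a survival factor of B and plasma cells, had 4.89, 6.05 and 5.75 CPM in controls, 1.898, 3.003 and 2.06 CPM in LPS and 5.67 and 8.52 CPM in dual-treatment lungs. Tnfsf9, the ligand of Tnfrsf9 on antigen-presenting cells, had 10.6, 7.74 and 13.1 CPM in controls, 6.47, 4.16 and 3.796 CPM in LPS and 11.03 and 8.34 CPM in dual-treatment lungs. In both genes the LPS mice were the lowest, and they fell 2.39-fold and 2.18-fold (edgeR quasi-likelihood test, Benjamini-Hochberg, adjusted p = 0.00185 and 0.00451). Tnfsf9 lost its call without control mouse 4 (log2 fold change −0.94), LPS mouse 7 (−0.97) or LPS mice 6 and 7 (−0.69). The antisense gene Tnfsf13os had 2.398, 3.097 and 2.81 CPM in controls, 1.01, 1.33 and 0.726 CPM in LPS and 4.901 and 5.79 CPM in dual-treatment lungs and fell 2.704-fold (edgeR quasi-likelihood test, Benjamini-Hochberg, adjusted p = 0.00163). Tnfsf12, Tnfsf13 and Tnfsf13os lie together at chr11:69577076-69586928, chr11:69573403-69576610 and chr11:69572842-69590215 of GRCm39. Tnfsf12 shares 980 of its 1872 and Tnfsf13 1252 of its 1906 exonic bases with a read-through gene or the antisense gene, so these 3 changes are uncertain as separate events.

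Besides Tnf, the ligands not called with LPS were Ltb, Tnfsf14, Tnfsf15, Tnfsf8, Tnfsf13b and Eda. Tnfsf13b (BAFF), a B cell survival factor, lay above all controls in each LPS mouse, with 20.6, 20.2 and 16.9 CPM against 12.6, 14.6 and 13.98 CPM and a log2 fold change of 0.49. Eda had 1.78, 2.31 and 3.01 CPM against 4.16, 4.18 and 3.86 CPM, lower in all LPS mice, with a log2 fold change of −0.78 that passed the call at −1.18 without LPS mice 6 and 7 and at −1.05 with all mice when scaled by library size only. Ltb, a membrane lymphotoxin, had 5.46, 12.9 and 4.35 CPM against 10.3, 10.7 and 10.6 CPM, high in LPS mouse 6 alone, and without that mouse it was called lower (−1.095). Tnfsf14 and Tnfsf15, ligands of Tnfrsf14 and Tnfrsf25, and Tnfsf8, the ligand of Tnfrsf8, overlapped between the groups, with log2 fold changes of 0.13, 0.35 and 0.58, and Tnfsf15 was called at 1.203 without LPS mice 6 and 7.

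**Figure D1:**
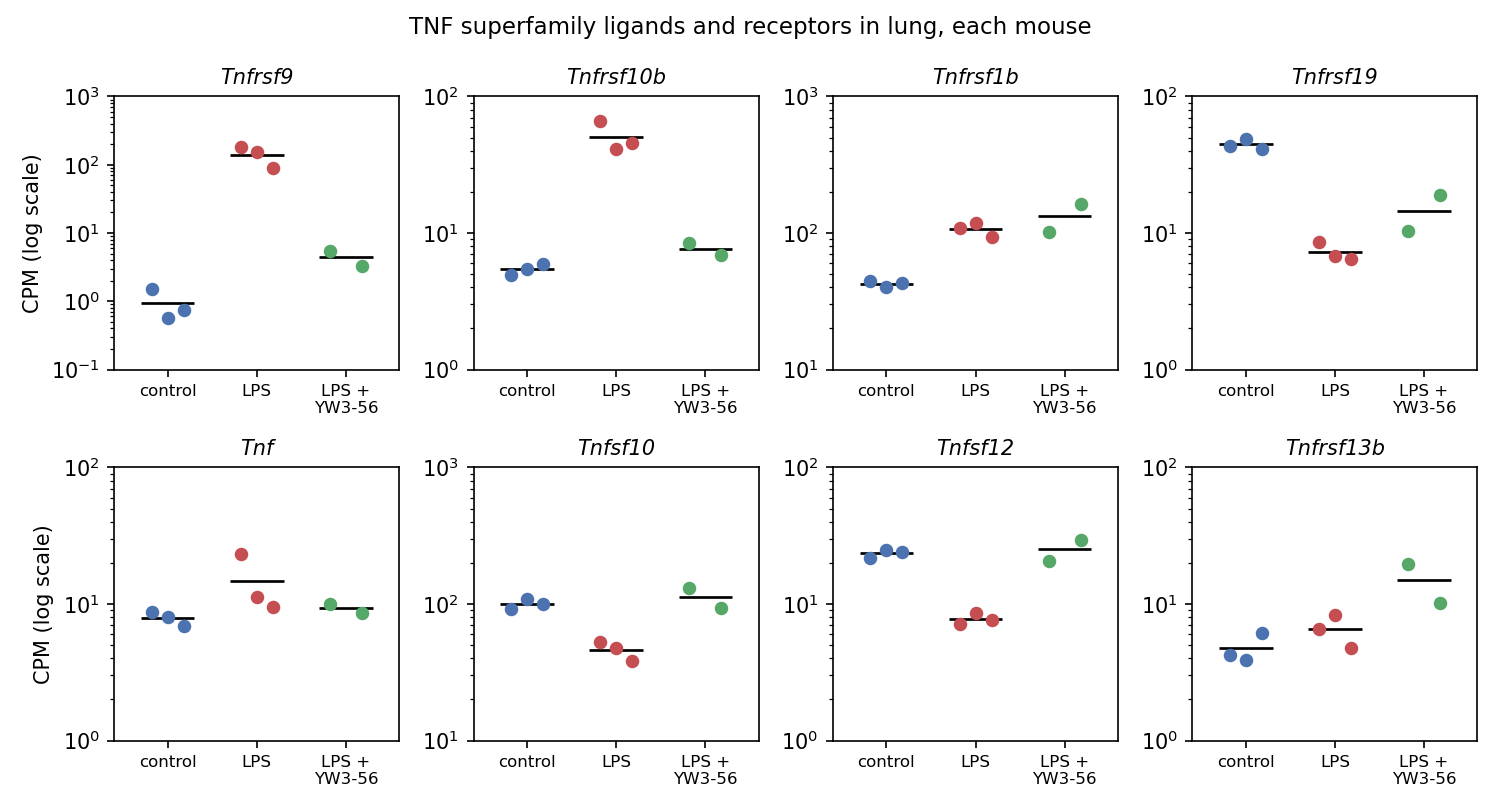
Level of 8 members in each mouse, as TMM-scaled CPM on log axes; points are the 3 control, 3 LPS and 2 dual-treatment (LPS + YW3-56) mice and lines are group means. Tnfrsf9 lies between 90.04 and 179.5 CPM in the LPS mice, above all other mice, whereas Tnfsf10 and Tnfsf12 are lowest there.

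In 2 pairs of receptor and ligand the calls with LPS were opposite: Tnfrsf9 and Tnfrsf10b rose while their ligands Tnfsf9 and Tnfsf10 fell. The calls of both ligands were lost without LPS mice 6 and 7 (−0.69 and −0.92), and of the neighbouring decoy receptors Tnfrsf22 fell and Tnfrsf23 rose. Fas and Fasl both rose. Cd40, Tnfrsf11a and Tnfrsf11b rose while transcripts of their ligands Cd40lg and Tnfsf11 had at most 12 counts in any control and 2 in any LPS library. Tnfsf12 fell while its receptor Tnfrsf12a was not called, and Tnfsf13b was not called while neither of its tested receptors was. Genes that lie close together also differed: on chromosome 4, Tnfrsf4 at chr4:156098293-156101069 rose and its neighbour Tnfrsf18 at chr4:156110621-156113352 fell. The call of Tnfrsf18 was lost without LPS mice 6 and 7 (−0.44), and without control mouse 2, LPS mouse 6 or LPS mouse 7 alone. On chromosome 6, Tnfrsf1a and Ltbr were higher in every LPS mouse and nearby Cd27 fell.

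The second comparison, dual treatment against control, asks which members still differed from control lung when YW3-56 preceded LPS, and it shares its control mice with the first. Tnfrsf9, Tnfrsf8 and Tnfrsf1b were still above control and Tnfrsf19 was still below it, while Tnfrsf10b and Tnfrsf4 were not called. Of 38 tested members 7 rose and 2 fell, all of them receptors, against backgrounds of 5.25% of all tested genes higher and 1.9% lower. These are 18.4% and 5.26% of the members, with a median log2 fold change of 0.26 over the members. This comparison holds no LPS mice, so leaving out LPS mice 6 and 7 acts on it only through the filter, the scaling and the spread shared by the groups. It is therefore no check of these counts. Of the 12 tested ligands, 0 were called by edgeR and 0 by DESeq2, and 1 had an unadjusted p under 0.05 in edgeR, in the upward direction.

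Tnfrsf9 was 4.68-fold above control in the dual treatment and Tnfrsf8 3.697-fold (edgeR quasi-likelihood test, Benjamini-Hochberg, log2 fold change 2.23 ± 0.46 SE, adjusted p = 0.0109 for Tnfrsf9 and log2 fold change 1.89 ± 0.31 SE, adjusted p = 0.00391 for Tnfrsf8). For both genes, each of the 2 dual-treatment mice lay between the controls and the LPS mice. Tnfrsf1b was 3.11-fold above control (edgeR quasi-likelihood test, Benjamini-Hochberg, log2 fold change 1.64 ± 0.18 SE, adjusted p = 5.02e-04), and dual-treatment mouse 5 had the highest value of all 8 mice. Tnfrsf11a rose 2.06-fold, Tnfrsf23 2.12-fold and Tnfrsf26 2.42-fold, both mice above all controls in each case. By edgeR's quasi-likelihood test (Benjamini-Hochberg), their log2 fold changes and adjusted p were 1.04 ± 0.16 and 0.00257, 1.08 ± 0.21 and 0.00924, and 1.27 ± 0.28 and 0.0153.

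Tnfrsf13b (TACI), a receptor of B cells for Tnfsf13 and Tnfsf13b, had 4.21, 3.895 and 6.12 CPM in controls, 6.53, 8.32 and 4.801 CPM in LPS and 19.7 and 10.1 CPM in dual-treatment lungs. Both dual-treatment mice were above all other mice, mouse 2 by far. It rose 3.14-fold (edgeR quasi-likelihood test, Benjamini-Hochberg, log2 fold change 1.65 ± 0.33 SE, adjusted p = 0.0103), and without dual-treatment mouse 2 the log2 fold change was 1.06 and the call was lost. Tnfrsf13c, the BAFF receptor of B cells, had 1.12, 1.69 and 1.84 CPM in controls, 2.19, 2.89 and 1.06 CPM in LPS and 6.49 and 1.8 CPM in dual-treatment lungs, with mouse 2 alone above the rest. It was not called (log2 fold change 1.41), but passed without dual-treatment mouse 5 (2.03) and, with all mice, when no filter on low counts was used (1.41). The 6 B cell markers, led by Cd79b, summed to 41.5, 45.5 and 42.1 CPM in controls, 28.6, 28.3 and 20.1 CPM in LPS and 77.2 and 29.1 CPM in the dual treatment, so dual-treatment mouse 2 was also the highest there. Against control 0 of 6 were called by edgeR in the dual treatment, 0 at an unadjusted p under 0.05 and 0 by DESeq2. With LPS against control 3 of the 6 were called lower. Between the dual treatment and LPS 3 of 6 were called higher, where Tnfrsf13b was higher as well (log2 fold change 1.19). The part of B cells in Tnfrsf13b was not tested. The 4 plasma cell markers, led by Sdc1, summed to 229, 246 and 257 CPM, 359.5, 319.8 and 335 CPM and 246 and 223 CPM, and most of this is Sdc1. Without it Jchain, Mzb1 and Derl3 summed to 26.9, 24.03 and 18.6 CPM, 9.85, 18.2 and 14.96 CPM and 49.3 and 5.44 CPM, each of the 3 being highest in dual-treatment mouse 2. Of the 4 plasma cell markers 1 was called lower with LPS against control, and 2 were called higher in the dual treatment than with LPS.

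Tnfrsf19 and Tnfrsf25 were below control in the dual treatment, by 3.05 and 2.69 times (edgeR quasi-likelihood test, Benjamini-Hochberg, log2 fold change −1.61 ± 0.24 SE, adjusted p = 0.00225 for Tnfrsf19 and log2 fold change −1.43 ± 0.30 SE, adjusted p = 0.0124 for Tnfrsf25). All 5 mice that received LPS lay below every control for both genes. Calls depended on single mice: without dual-treatment mouse 2, 3 members were called higher and 1 lower, 4 higher and 2 lower without control mouse 4, and 6 higher and 2 lower without control mouse 2. Without dual-treatment mouse 2 the calls of Tnfrsf9 (log2 fold change 1.79), Tnfrsf23 (1.03), Tnfrsf26 (1.2) and Tnfrsf25 (−1.08) were lost. Without control mouse 4 those of Tnfrsf11a (0.99), Tnfrsf23 (0.97) and Tnfrsf26 (1.15) were lost, and without control mouse 2 that of Tnfrsf26 (1.21). The calls of Tnfrsf1b, Tnfrsf8 and Tnfrsf19 were kept in every alternative that was run.

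**Figure D2:**
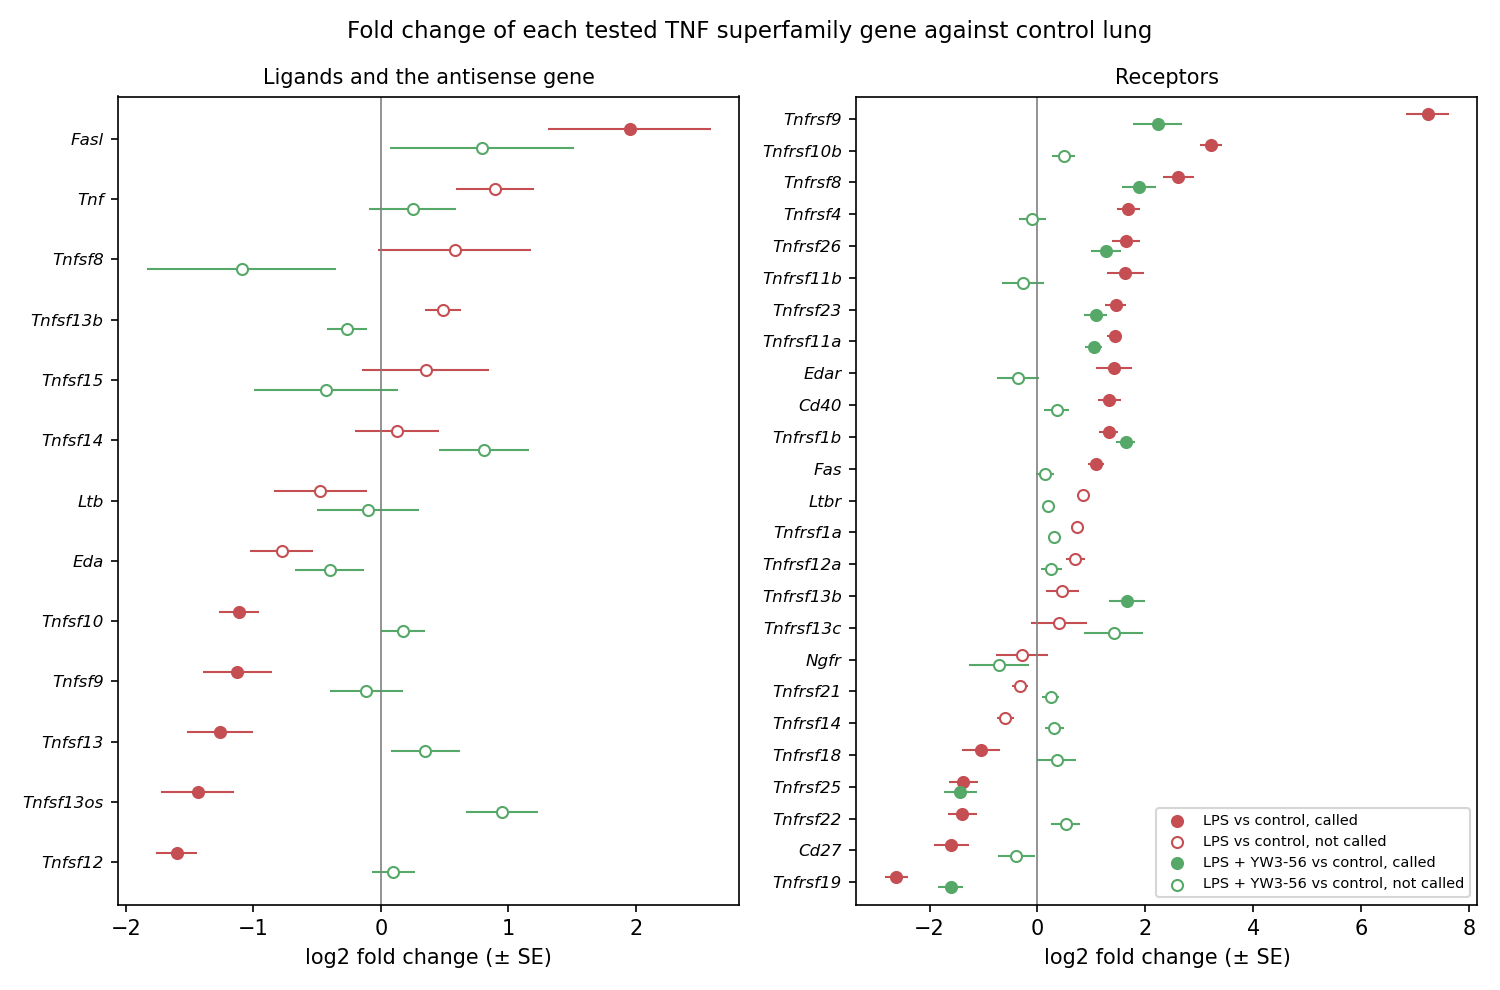
Log2 fold change with its standard error for the 38 tested members, LPS against control and dual treatment (LPS + YW3-56) against control, which share the control mice; filled points were called and open points were not. With LPS 12 of 25 receptors and 1 of 12 ligands are filled on the right, and with the dual treatment 7 receptors and 0 ligands.

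The third comparison, dual treatment against LPS, asks which members differed when YW3-56 in its solvent was given before LPS. A solvent injection is not stated for the LPS mice, so YW3-56 and its solvent cannot be told apart here. Tnfrsf9 and Tnfrsf10b were lower in the dual treatment, and the ligands Tnfsf12, Tnfsf13 and Tnfsf10 were higher. Of 38 tested members 10 were higher and 5 lower in the dual treatment, against backgrounds of 19.8% higher and 14% lower among all tested genes; the shares of members were 26.3% and 13.2%, the latter near the background. All 5 lower members were receptors, and the 10 higher ones were 4 ligands, 5 receptors and the antisense gene. Without LPS mice 6 and 7, 8 receptors and 3 ligands were lower, and 3 ligands, 1 receptor and the antisense gene higher. Scaling by library size only moved the median of all genes by 0.32 and the share of higher genes among all called genes from 58.5% to 74.7%, with 12 members then higher and 5 lower. With LPS mice 6 and 7 left out, the totals turned to 5 higher and 11 lower of 41 tested members, beside 18.1% higher and 12.3% lower of all genes tested there, with LPS mouse 1 alone standing for its group. This comparison and LPS against control share the LPS mice. Here 4 of 6 endothelial and 5 of 7 macrophage markers were called higher in the dual treatment. Called lower were 8 of 10 squamous, 7 of 7 skeletal muscle and 4 of 4 erythroid markers. Of 11 neutrophil markers 4 were higher and 4 lower. The part of these cells in the changes of members was not tested.

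The lower members were Tnfrsf9, Tnfrsf10b, Tnfrsf11b, Edar and Tnfrsf4, all of which rose with LPS against control. Tnfrsf9 was 32.1-fold and Tnfrsf10b 6.64-fold lower than with LPS alone (edgeR quasi-likelihood test, Benjamini-Hochberg, log2 fold change −5.01 ± 0.40 SE, adjusted p = 1.30e-05 for Tnfrsf9 and log2 fold change −2.73 ± 0.22 SE, adjusted p = 1.42e-05 for Tnfrsf10b). The log2 fold changes and adjusted p of the other 3, by edgeR's quasi-likelihood test (Benjamini-Hochberg), were −1.901 ± 0.40 and 0.00266 for Tnfrsf11b, −1.78 ± 0.39 and 0.00353 for Edar, and −1.78 ± 0.25 and 2.79e-04 for Tnfrsf4. For each of the 5 genes both dual-treatment mice lay below all 3 LPS mice, and the calls held without LPS mice 6 and 7. Fas and Cd40 missed the fold limit with log2 fold changes of −0.94 and −0.98, and passed it at −1.22 and −1.46 when LPS mice 6 and 7 were left out. Fas also passed without LPS mouse 7 (−1.08) or dual-treatment mouse 2 (−1.09), and Cd40 by DESeq2 (−1.04) or without control mouse 4 (−1.003), LPS mouse 6 (−1.04), LPS mouse 7 (−1.201) or dual-treatment mouse 5 (−1.07). Tnf had a log2 fold change of −0.64, and was called lower at −1.32 without LPS mice 6 and 7. The ligands Tnfsf15 (−0.78) and Tnfsf8 (−1.67) were also called lower in that setting, at −1.63 and −2.44. Scaled by library size only, Tnfsf14 (0.68) and Tnfrsf14 (0.91) were called higher, at 1.01 and 1.23.

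Of the higher members, the ligands Tnfsf12, Tnfsf13 and Tnfsf10 were 3.24, 3.05 and 2.43 times as high as with LPS alone. By edgeR's quasi-likelihood test (Benjamini-Hochberg), their log2 fold changes and adjusted p were 1.696 ± 0.17 and 4.56e-05, 1.61 ± 0.28 and 8.83e-04, and 1.28 ± 0.17 and 2.07e-04. Tnfrsf22 was 3.76-fold and Tnfsf13os 5.22-fold higher (edgeR quasi-likelihood test, Benjamini-Hochberg, log2 fold change 1.91 ± 0.28 SE, adjusted p = 3.81e-04 for Tnfrsf22 and log2 fold change 2.38 ± 0.30 SE, adjusted p = 1.53e-04 for Tnfsf13os). All dual-treatment values of these 5 genes lay above all LPS values, and the calls held without LPS mice 6 and 7, while that of Tnfsf10 was lost without dual-treatment mouse 2 (0.99). Tnfrsf18, Cd27, Tnfrsf13b, Tnfsf9 and Tnfrsf19 had log2 fold changes of 1.401, 1.21, 1.19, 1.01 and 1.003, and all 5 calls were lost without LPS mice 6 and 7, where the log2 fold changes were 0.79, 1.25, 1.18, 0.58 and 0.76. Tnfrsf18 had an SE of 0.38 and adjusted p = 0.0102 (edgeR quasi-likelihood test, Benjamini-Hochberg).

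Single mice also decided some of these calls. Cd27 lost its call without dual-treatment mouse 5 (log2 fold change 0.86), and Tnfrsf13b without LPS mouse 7 (0.996) or dual-treatment mouse 2 (0.598). Tnfsf9 lost it without control mouse 4, LPS mouse 6, LPS mouse 7 or dual-treatment mouse 2 (0.99, 0.91, 0.86 and 0.78) and by DESeq2 (0.96). Tnfrsf19 lost it without control mouse 4, LPS mouse 6, LPS mouse 7 or dual-treatment mouse 5 (0.98, 0.95, 0.91 and 0.49) and by DESeq2 (0.95). Low-count members gained a call when 1 dual-treatment mouse was left out, Fasl (−2.81) and Tnfrsf13c (1.64) without mouse 5, and Tnfsf8 (−3.24) without mouse 2.

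Tnfrsf1b, Tnfrsf11a, Tnfrsf8, Tnfrsf23 and Tnfrsf26, which rose against control in both treated groups, were not called between those groups, with log2 fold changes of 0.32, −0.39, −0.72, −0.37 and −0.36. Of these, Tnfrsf8 was called lower without LPS mice 6 and 7 (−1.06). A difference that misses the threshold with 2 dual-treatment mice does not show that the levels are equal.

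Promoter sequences were taken from RefSeq (build GRCm38.p6; 250 bases before to 50 after each start), which matched 34 of the 45 members; no entry was found for Tnfsf12, Cd40lg, Cd70, Tnfsf4, Tnfsf9, Tnfrsf10b, Tnfrsf11b, Tnfrsf22, Tnfrsf26, Cd40 and Tnfsf13os. They were searched on both strands for the NF-κB consensus, a motif of 10 letters. A match occurred in 4 of these 34 members (11.8%), in 2 of the 9 that rose with LPS and in 2 of the other 25, against 1769 of 27025 genes (6.55%) and 5.8% of all 32851 promoters in the table. The matches are shown because Tnfrsf9 and Tnfrsf8, the first and the third largest rises, hold 2 of them; capitals mark the motif, overlapping matches merged, and each window is written 5′ to 3′ on the strand of the gene.
Tnfrsf9 (chr4:150927941-150927981, plus strand): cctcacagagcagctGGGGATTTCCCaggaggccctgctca
Tnfrsf8 (chr4:145315307-145315347, minus strand): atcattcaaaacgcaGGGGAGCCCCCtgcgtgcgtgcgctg
Ltb (chr17:35194405-35194444, plus strand): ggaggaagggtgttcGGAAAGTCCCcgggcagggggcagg
Tnfrsf25 (chr4:152116300-152116339, plus strand): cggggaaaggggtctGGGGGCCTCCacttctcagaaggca

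In Tnfrsf9 the motif lies 43 to 33 bases before 1 of its 2 listed starts, and in Tnfrsf8 168 to 158 bases before its start, read on both strands. Ltb, which was not called, and Tnfrsf25, which fell, hold it 87 to 78 and 28 to 19 bases before a start. Tnfrsf25 has 1 further match after that start. These are matches of letters in short windows; binding was not measured here, and no match says only that these letters are not in that window.

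The genes that carry the signal of these receptors were read from 7 lists with 54 genes, all tested. With LPS 24 rose and 2 fell, with the dual treatment 10 rose and 0 fell against control by edgeR (4 were lower at an unadjusted p under 0.05, and DESeq2 called 0 lower), and between the dual treatment and LPS 2 were higher and 19 lower. As shares of the 54 genes these are 44.4% and 3.7%, 18.5% and 0%, and 3.7% and 35.2%, where all tested genes had 17.9% and 21.3%, 5.25% and 1.9%, and 19.8% and 14%. Scaled by library size only, the counts of the 54 genes were 19 and 4, 11 and 0, and 6 and 12. Of all 18560 tested genes, 2472 and 5124, 1000 and 310, and 5118 and 1735 were then called higher and lower.

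Of the 10 inhibitors and feedback genes of NF-κB, 7 rose with LPS and 4 with the dual treatment, both against control, beside 17.9% and 5.25% of all tested genes. Tnfaip3, the A20 enzyme that trims ubiquitin chains below TNF receptors, had 25.1, 26.1 and 29.01 CPM in controls, 1020, 661 and 623 CPM in LPS and 152 and 73.6 CPM in dual-treatment lungs. The 3 groups did not overlap, and the log2 fold changes (± SE) were 4.84 ± 0.31 for LPS, 2.08 ± 0.30 for the dual treatment, both against control, and −2.77 ± 0.33 between them. By edgeR's quasi-likelihood test (Benjamini-Hochberg), its adjusted p were 1.88e-06, 0.00187 and 1.02e-04. Its partner Tnip1, the NF-κB inhibitor Nfkbia and its relative Nfkbie rose in both treated groups against control, with log2 fold changes of 3.23, 3.13 and 2.53 for LPS and 1.53, 1.19 and 1.52 for the dual treatment. Between the groups, 7 of 10 genes of this list were lower in the dual treatment, beside 14% of all tested genes, among them Nfkbia (−1.94), Tnip1 (−1.699) and Nfkbib (−1.63). Scaled by library size only, Tnip2 (−0.906), Nfkbie (−0.684) and Bcl3 (−0.906) lost this call. Nfkbie also lost it without LPS mouse 1 (−0.984) or dual-treatment mouse 5 (−0.92). The same held with no filter on low counts (−0.986) or with at least 10 counts in every library (−0.987). Without dual-treatment mouse 2 the call of Nfkbia against control was lost (0.81).

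Of the NF-κB subunits 4 of 5 rose with LPS, beside 17.9% of all tested genes. These were Rel (2.71), Relb (2.603), Nfkb2 (1.67) and Rela (1.05), the last lost when scaled by library size only (0.75) or without LPS mouse 1 (0.94). Relb, the subunit of the non-canonical pathway that Ltbr and Cd40 use, had 28.2, 29.99 and 30.9 CPM in controls, 198, 158 and 185 CPM in LPS and 80.4 and 62.4 CPM in dual-treatment lungs. It also rose in the dual treatment against control (1.27 ± 0.14), the only subunit of the 5 called there, and its 3 groups did not overlap. Nfkb2 narrowly missed the fold limit there (0.967, adjusted p = 0.00149, edgeR quasi-likelihood test, Benjamini-Hochberg). It had 47.9, 55 and 51.7 CPM in controls, 192, 144.6 and 155.7 CPM in LPS and 104.5 and 96.98 CPM in dual-treatment lungs, also without overlap. Rel, a subunit of activated lymphoid and myeloid cells, had 17.4, 17.3 and 16.7 CPM in controls, 144, 91.9 and 100 CPM in LPS and 16.8 and 14.9 CPM in dual-treatment lungs, so that the dual-treatment range reached the controls. Rel and Relb were called lower in the dual treatment than with LPS, with log2 fold changes of −2.83 and −1.34, beside 14% of all tested genes. The other 3, Rela, Nfkb1 and Nfkb2, missed the fold limit there with an adjusted p under 0.05 (edgeR quasi-likelihood test, Benjamini-Hochberg). In all 5 subunits both dual-treatment mice lay below every LPS mouse, and DESeq2 called 3 of the 5 lower.

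Of 11 adaptors 3 rose and 2 fell with LPS, shares of 27.3% and 18.2% beside 17.9% and 21.3% of all tested genes. Those called were Traf6 (2.15), Ripk1 (1.67) and Tank (1.36), which rose, and Fadd (−2.11), which links death receptors to caspase-8, and Traf1 (−1.36), an inducible TRAF bound by Tnfrsf9 and Tnfrsf1b, which fell. Traf1 had 88.8, 108 and 112 CPM in controls, 44.6, 37.4 and 38.5 CPM in LPS and 83.4 and 80.7 CPM in dual-treatment lungs, and Fadd had 14.4, 12.1 and 13.3 CPM in controls, 3.03, 2.89 and 3.29 CPM in LPS and 14.5 and 17.2 CPM in dual-treatment lungs. LPS mice were the lowest for both, and both were higher in the dual treatment than with LPS (1.03 and 2.37), though Traf1 fell short of the call without LPS mouse 6 (0.98), LPS mouse 7 (0.99), both (0.87) or dual-treatment mouse 2 (0.98) and by DESeq2 (0.98). Traf6 and Ripk1 were lower there (−2.02 and −1.53). Between dual treatment and control 0 of 11 adaptors were called by edgeR and 0 by DESeq2, and 3 were higher and 2 lower at an unadjusted p under 0.05.

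Among 13 ubiquitin ligases and IκB kinases 2 rose with LPS (15.4%, beside 17.9% of all tested genes), the ubiquitin ligases Birc3 and Birc2 of the TNF receptor complex. Birc3 had 51.3, 43.4 and 49.6 CPM in controls, 410.5, 328 and 318 CPM in LPS and 133 and 74.2 CPM in dual-treatment lungs, with no overlap of the 3 groups. Its log2 fold changes were 2.87 ± 0.21 with LPS, 1.11 ± 0.22 with the dual treatment and −1.76 ± 0.24 between them, and the call against control in the dual treatment was lost without dual-treatment mouse 2 (0.596). Birc2 had 2.46 with LPS and −2.05 between the dual treatment and LPS, where the kinase adaptor Tab3 (−1.17, or −0.84 and not called when scaled by library size only) was lower as well.

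Of 6 cell death genes 3 rose with LPS and 3 with the dual treatment, both against control, beside 17.9% and 5.25% of all tested genes. Ripk3 and Mlkl, the kinase and the executioner of necroptosis, rose in both. Ripk3 had 12.2, 9.76 and 9.24 CPM in controls, 40.5, 50.01 and 38.7 CPM in LPS and 46.2 and 29.6 CPM in dual-treatment lungs, and Mlkl had 6.36, 7.697 and 6.16 CPM in controls, 53.5, 37.5 and 37.3 CPM in LPS and 30.1 and 14.1 CPM in dual-treatment lungs, all 5 treated mice above all controls. Their log2 fold changes against control were 2.05 and 2.67 with LPS and 1.86 and 1.71 with the dual treatment, and neither was called between the treated groups (−0.18 and −0.96). Mlkl narrowly missed the fold limit there, with both dual-treatment mice below all LPS mice, while Ripk3 overlapped. Of the 6 genes, edgeR called 1 and DESeq2 2 lower in the dual treatment than with LPS. Bid, which carries the death signal to mitochondria, rose with the dual treatment (1.49).

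Of 7 shedding genes 3 rose with LPS, beside 17.9% of all tested genes. These were Rhbdf2 (1.76), which brings the TNF-shedding protease to the cell surface, Sppl2a (1.74), which cleaves the TNF stub, and the proprotein protease Furin (1.23). The same 3 genes were lower in the dual treatment than with LPS, with log2 fold changes of −1.46, −1.29 and −1.09, beside 14% of all tested genes. Scaled by library size only, Furin lost both calls (0.93 and −0.76) and Sppl2a the second (−0.95), and Furin lost the second without LPS mouse 1 (−0.996). In the dual treatment against control 0 of the 7 were called by edgeR and 0 by DESeq2, with 1 higher and 1 lower at an unadjusted p under 0.05. The protease itself, Adam17, had a log2 fold change of 0.01 with LPS. Relt, a TNF receptor relative outside the symbol rule, had 7.24, 5.44 and 6.58 CPM in controls, 26.3, 40.02 and 25.3 CPM in LPS and 22.2 and 30.03 CPM in dual-treatment lungs and rose in both treated groups (2.25 and 2.03). Eda2r, the second ectodysplasin receptor, rose with LPS (1.21, or 0.92 and not called when scaled by library size only) and was lower in the dual treatment than with LPS (−1.35).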

How the data were processed

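Lung RNA of 8 mice was analysed. The authors deposited raw counts of reads per gene, made with FastQC 0.11.9, Trim Galore, HISAT2 2.2.1 and featureCounts 2.0.1 on GRCm39; annotation, strand and multimapping settings are not stated. Gene IDs were matched to GENCODE M39 (54749 of 55416; the 667 others held 0.0533% of counts). Counts were fitted with edgeR 4.0.16 in R 4.3.3 (filterByExpr, TMM, 1 group factor over 8 libraries, 5 residual degrees of freedom), with quasi-likelihood tests and Benjamini-Hochberg adjustment over 18560 genes. SE is the absolute log2 fold change divided by the square root of F. Alternatives were DESeq2 1.42.0, other scalings, filters and thresholds, and left-out mice. Members and lists were chosen with earlier results of these data known. Per comparison, full statistics were given for up to 10 called members with the largest change, and levels for the highest members per length. Up to 4 called genes of each pathway list were named, plus Traf1, Tnfaip3, Birc3 and Relb. Adam17, the promoter search for 1 motif in RefSeq and the search for shared 50-base words were chosen after values were seen.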

Additional observations from a re-analysis of the deposited data

How the results depend on the processing

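Calls of members kept their direction throughout. Of 798 values of called members under an alternative, 750 stayed called, 48 lost the call and 0 turned, and of 1131 values of members not called, 46 became called and 22 turned. Not all of these values were free to change, since the rule without a fold threshold keeps every call by construction. A left-out mouse acts on a comparison without its group only through the filter, the scaling and the spread shared by the groups. The 750 are therefore not a count of independent checks. Calls kept in every alternative were 18 of 23 for LPS against control, 3 of 9 for dual treatment against control and 9 of 15 for dual treatment against LPS. Of the pathway calls 21 of 26, 8 of 10 and 13 of 21 were kept.

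With an adjusted p under 0.05 and no fold threshold, called pathway genes numbered 42 (26 with it) for LPS against control, 17 (10) for dual treatment against control and 43 (21) for dual treatment against LPS, and members lower in the last 10 (5); this rule admits smaller changes by construction. Without LPS mice 6 and 7, members higher in dual treatment against LPS were 5 (10) and lower 11 (5); the cause was not tested. With each mouse left out in turn, members called with LPS were 11 to 14 higher and 7 to 11 lower, and with the dual treatment against control 3 to 8 higher and 1 to 2 lower. Where 1 dual-treatment or LPS mouse remained, it was taken to vary like the other groups.

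Directions turned only for values not called. Scaled by library size only, Tnfsf14 was −0.162 (LPS against control) and Tnfrsf25 0.274 (dual treatment against LPS), log2. With each mouse left out in turn, log2 fold changes for LPS against control were −0.049 to 0.344 for Tnfsf14, −0.367 to 0.736 for Tnfsf15 and −0.026 to 0.826 for Tnfsf8. For dual treatment against control they were −0.478 to 0.146 for Ltb, −0.869 to 1.501 for Fasl, −0.131 to 0.371 for Tnfsf10, −0.216 to 0.304 for Tnfsf12, −0.36 to 0.049 for Tnfsf9, −0.002 to 0.583 for Tnfsf13, −0.01 to 0.224 for Fas and −0.692 to 0.01 for Tnfrsf11b. For dual treatment against LPS they were −0.005 to 0.993 for Ltb, −0.087 to 0.591 for Tnfrsf1b, −0.597 to 0.3 for Tnfrsf25, −1.58 to 0.182 for Ngfr and −0.211 to 1.639 for Tnfrsf13c. The cause was not tested.

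No paired analysis was possible because the groups share at most 1 replicate number and the labels pair no mice. The dual treatment has 2 mice, no mice received YW3-56 without LPS, and a solvent injection is not stated for the LPS mice. Solvent and LPS therefore cannot be told apart in LPS against control. In dual treatment against LPS, YW3-56 and its solvent cannot be told apart. Counts in whole lung do not separate cell types, and 7 members failed the filter on low counts. Strand and multimapping settings of the counting are not stated, so genes that overlap others (Tnfrsf12a, Tnfsf12, Tnfsf13, Tnfsf13os) or share sequence (Tnfrsf22, Tnfrsf23) carry uncertain counts.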
